A study of Mus musculus with 167 samples.

Results

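The enzymes and partners that write, copy and remove DNA methylation were followed in livers of male mice given phenobarbital. The set was chosen by gene name and holds 9 genes: Dnmt1, Uhrf1, Hells, Dnmt3a, Dnmt3b, Tet1, Tet2, Tet3 and Tdg. Of these, 8 had at least 1 array probe set annotated to that gene alone, and each was read from the brightest of them, the probe set with the highest mean over all arrays. Uhrf1 and Tet1 were dim, above their array's median on fewer than 3 arrays, and stayed out of the test across genes. Every probe set annotated to Tdg also named 2 pseudogenes, Tdg-ps and Tdg-ps2. So 6 members were tested, among 12621 tested genes of 18193 with such a probe set.

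The study gave phenobarbital (PB), a sedative that activates the nuclear receptors CAR and PXR in the liver, in drinking water for 91 days, followed by 4 weeks without drug. It asked how the liver transcriptome answers PB when the mouse receptors are replaced by the human ones. Each of 3 mouse lines of C57BL/6 background was split at random into PB and control animals, aged 9 to 11 weeks and acclimatised for 5 days. RNA of powdered whole liver was measured on 1 Affymetrix array per animal.

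The humanized line (CARh and PXRh) carried human CAR and PXR and had 27 PB and 29 control animals. The knockout line (CARKO and PXRKO) lacked both receptors and had 28 PB and 27 control animals. The wild-type line had 29 PB and 27 control animals. Each sample was 1 animal apart from 1 pair of near-identical arrays described below, which counted as 1 sample. This left 166 samples, and each of the 36 groups held 3 to 5 of them. PB animals were killed after 1, 7, 14, 28 or 91 days of 0.05% (wt/vol) PB, or on day 119 after 4 weeks off the drug, and controls, labelled only as control, were killed on the same days. The dose comes from the treatment text and not from a label of the single samples, and that text also lists lower concentrations and a younger starting age. Genotypes were separate lines from a supplier, so genotype and line cannot be told apart. Values come from bulk liver, in which fewer cells of a type and less RNA per cell cannot be told apart.

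DNMT1 copies CpG methylation onto the new strand after replication, guided by UHRF1, which binds hemimethylated DNA, and helped by HELLS, a chromatin remodeller needed for methylation of repeats. DNMT3A and DNMT3B set methylation on unmethylated CpGs. TET1, TET2 and TET3 oxidise 5-methylcytosine, and TDG excises the further oxidised bases so that repair restores cytosine. Genes of the maintenance arm are known targets of E2F factors in dividing cells, whereas adult hepatocytes rarely divide, and PB is known to start a short burst of hepatocyte replication in mice.

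Promoter sequences of the maintenance genes and of Dnmt3b are shown because the results below set these genes beside the replication genes. Each runs 5' to 3' on the gene's strand from 250 bases before to 50 bases after the annotated start, from RefSeq on GRCm38.p6. Capitals mark matches to 4 words of the E2F consensus, TTTCCCGC, TTTCGCGC, TTTGCCGC and TTTGGCGC, searched on both strands. Hells lies at chr19:38930740-38931039 on the plus strand and holds TTTCCCGC at position -62 from the start. Uhrf1 lies at chr17:56304063-56304362 on the plus strand and holds TTTCGCGC at -185. Dnmt1 lies at chr9:20952574-20952873 on the minus strand and holds GCGCGAAA, the reverse complement of TTTCGCGC, at -219 and TTTGGCGC at 34. Dnmt3b lies at chr2:153649199-153649498 on the plus strand and holds none of the 4 words.
Hells: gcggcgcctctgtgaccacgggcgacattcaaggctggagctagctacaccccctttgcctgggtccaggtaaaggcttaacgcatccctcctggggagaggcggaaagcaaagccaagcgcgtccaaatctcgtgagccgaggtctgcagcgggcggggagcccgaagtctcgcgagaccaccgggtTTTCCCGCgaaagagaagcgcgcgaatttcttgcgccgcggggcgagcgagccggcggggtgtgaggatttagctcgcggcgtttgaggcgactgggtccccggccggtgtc
Uhrf1: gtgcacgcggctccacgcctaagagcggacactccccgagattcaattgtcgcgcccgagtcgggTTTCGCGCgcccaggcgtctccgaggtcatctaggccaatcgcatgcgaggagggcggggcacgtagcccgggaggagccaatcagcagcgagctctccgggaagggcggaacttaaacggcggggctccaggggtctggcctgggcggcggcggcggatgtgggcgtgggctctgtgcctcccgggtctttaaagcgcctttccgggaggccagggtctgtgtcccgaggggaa
Dnmt1: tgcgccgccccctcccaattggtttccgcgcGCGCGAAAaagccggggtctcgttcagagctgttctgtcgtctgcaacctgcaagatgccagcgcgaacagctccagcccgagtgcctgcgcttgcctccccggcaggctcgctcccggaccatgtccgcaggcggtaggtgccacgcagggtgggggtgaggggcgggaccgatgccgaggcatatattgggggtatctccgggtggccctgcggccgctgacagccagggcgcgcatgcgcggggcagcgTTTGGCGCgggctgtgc
Dnmt3b: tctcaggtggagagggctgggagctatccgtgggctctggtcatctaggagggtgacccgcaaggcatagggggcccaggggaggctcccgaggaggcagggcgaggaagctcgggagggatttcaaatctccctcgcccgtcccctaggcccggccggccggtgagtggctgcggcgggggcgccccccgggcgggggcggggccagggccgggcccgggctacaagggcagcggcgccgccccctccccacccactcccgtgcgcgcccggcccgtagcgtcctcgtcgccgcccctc
All 9 members matched the RefSeq promoter table, with 14 windows, and 3 of 9 genes (33.3%) or 3 of 14 windows (21.4%) held a word. Dnmt1 has 3 windows and Uhrf1 has 2, and the window printed is the one that holds a word, so it was chosen for it. The share was 2.6% over all promoters, 704 of 27025 genes, or 2.26% of windows. It was 37.0% over the replication list used below, 10 of 27 genes, and 4.76% over the mitosis list, 1 of 21 genes. All 4 printed windows are rich in CpG, with 34 CG pairs in Hells, 33 in Uhrf1, 33 in Dnmt1 and 30 in Dnmt3b. The other windows, with 2 and 12 CG pairs in Dnmt1 and 12 in Uhrf1, held no word. A match is a string of letters and was not tested as a binding site.

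Labels were checked with a CAR target and the mouse receptor gene, which cover them only in part. Averaged over the 5 dosing days, the CAR target Cyp2b10 rose by 4.71 in humanized and by 6.50 in wild-type livers on the log2 scale, and changed by 0.17 in knockout livers (adjusted p = 0.164). Nr1i3 (mouse CAR) differed by -3.33 in humanized and -3.48 in knockout controls from wild-type controls. So Cyp2b10 could not check the treatment labels of knockout livers, and Nr1i3 alone could not tell humanized from knockout livers. Arrays of animals 6026 and 6030 (humanized, PB, day 119) were nearly identical and counted as 1 sample. Animals 4019 (knockout, PB, day 28) and 4024 (knockout, PB, day 91) were also nearly identical across different labels, and were kept as labelled. Markers of pancreatic acinar cells, of which 6 of 8 were tested, stood more than 2 log2 units above their median of 5.84 on 22 arrays, 9 PB and 13 control. Over the dosing days hepatocyte markers were lower for 2 of 4 tested genes in humanized and 3 of 4 in wild-type PB livers. They were higher for 1 of 4 in knockout PB livers. Stellate cell markers were lower for 2 of 5 in humanized and in wild type and 0 of 5 in knockout. Of all genes, 32.4% in humanized, 19.6% in knockout and 31.5% in wild-type livers were called, as defined below, in either direction over these days. The part of these cell types in the member differences was not tested.

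All levels and differences below are log2 values, on which a difference of 1 is a 2-fold change. Differences are PB minus control from 1 limma model of all groups, ± its standard error (SE). A gene was called when its p, adjusted over all 12621 genes by the Benjamini-Hochberg method within that comparison, was under 0.05. Levels of different probe sets depend on their probes and are not compared between genes. Mean levels over all 166 samples were 7.45 ± 0.14 for Dnmt1, 5.46 ± 0.18 for Hells, 6.99 ± 0.21 for Dnmt3a, 6.89 ± 0.35 for Dnmt3b, 7.44 ± 0.16 for Tet2 and 5.92 ± 0.15 for Tet3 (SD, n = 166). Dnmt3b therefore varied most among the 6, between 5.73 and 7.86.

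Over the 18 comparisons of PB with control on a single day, limma called 5 of 108 member tests (4.63%), against 4.83% of the tests of all genes, so the members were called at about the background share. In 14 of the 18 comparisons limma called 0 of the 6 members, with 8 of those 84 tests at an unadjusted p under 0.05. In the other 4, the calls were Hells up and Dnmt3b down in wild type on day 1, Hells up in humanized livers on day 7, Dnmt3b down in knockout livers on day 1 and Dnmt3b up in knockout livers on day 28. Dnmt1, Dnmt3a, Tet2 and Tet3 were called on no single day.

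The member counts are set here beside the share of all genes called. In humanized livers the share of all tested genes called, in either direction, was 11.7% on day 1, 4.84% on day 7, 11.9% on day 14, 7.7% on day 28, 2.19% on day 91 and 0.214% on day 119. Beside these shares limma called 0, 1, 0, 0, 0 and 0 of 6 members, and 2, 1, 0, 1, 1 and 1 had an unadjusted p under 0.05. In knockout livers the share was 8.08% on day 1, 0.0158% on day 7, 0.325% on day 14, 5.16% on day 28, 3.45% on day 91 and 0.111% on day 119. There limma called 1, 0, 0, 1, 0 and 0 members, and the same number had an unadjusted p under 0.05 on each day. In wild-type livers the share was 12% on day 1, 2.72% on day 7, 8.79% on day 14, 5.55% on day 28, 2.13% on day 91 and 0.0238% on day 119. There limma called 2, 0, 0, 0, 0 and 0 members, and 2, 1, 2, 0, 0 and 0 had an unadjusted p under 0.05. The median member difference lay between -0.11 and 0.12 over the 18 comparisons, while the median over all genes lay between -0.02 and 0.01.

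**Figure D1:**
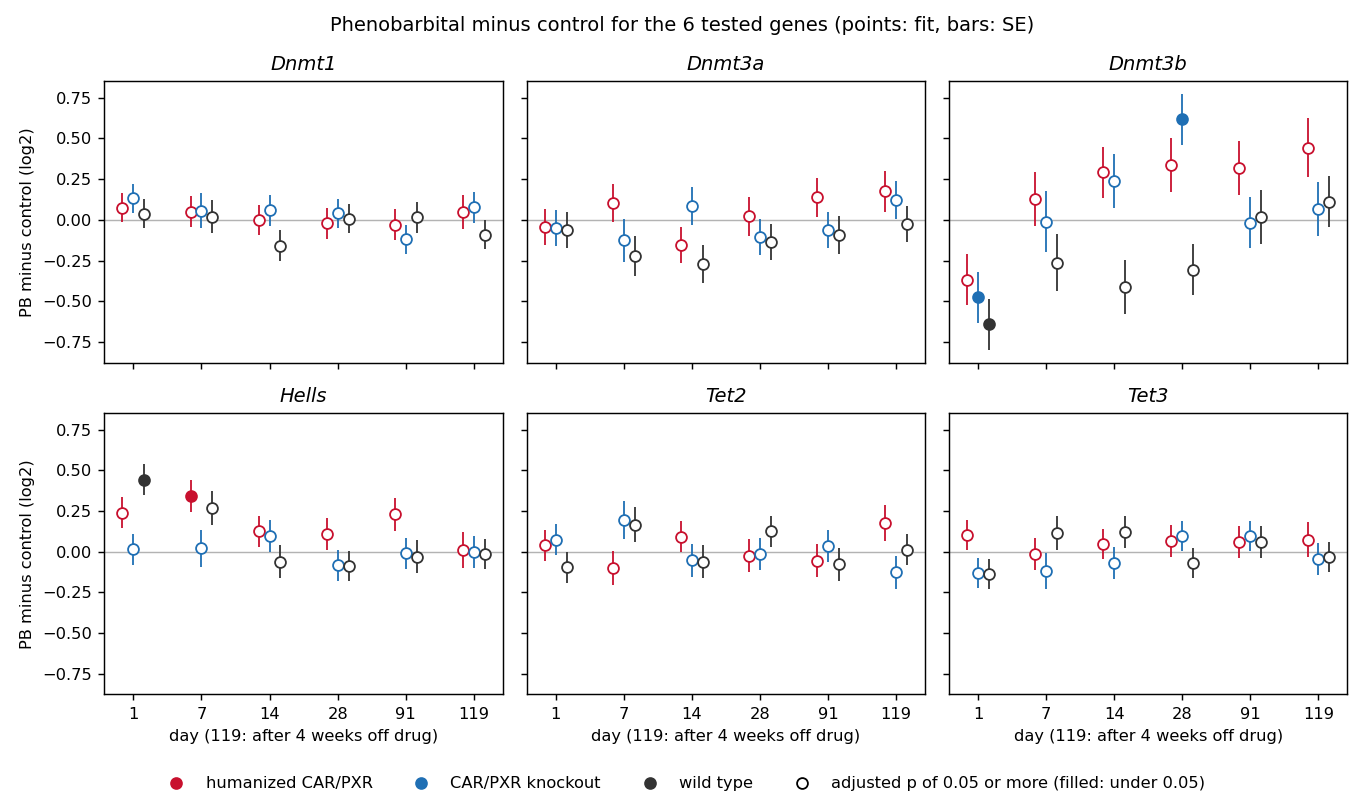
PB minus control (log2, points, bars: SE) for the 6 tested members by day in humanized (red), knockout (blue) and wild-type (black) livers, with filled points where the adjusted p was under 0.05. Only 5 points are filled: Hells in wild type on day 1 (0.44) and in humanized livers on day 7 (0.34), and Dnmt3b in wild type on day 1 (-0.64) and in knockout livers on day 1 (-0.48) and day 28 (0.62).

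Averaged over the 5 dosing days with each day weighted equally, 1 member was higher in humanized PB livers (Hells), 0 changed in knockout and 2 were lower in wild type (Dnmt3a and Dnmt3b). The share of all genes called was 32.4% in humanized, 19.6% in knockout and 31.5% in wild-type livers, and the members with an unadjusted p under 0.05 numbered 1, 0 and 3. PB effects were then compared between genotypes. For humanized minus knockout, 10.1% of genes and 1 member (Hells, higher) differed. For humanized minus wild type, 1.88% of genes and 1 member (Dnmt3b, higher) differed. For knockout minus wild type, 13.4% of genes and 1 member (Dnmt3b, higher) differed.

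The replication wave was measured with 33 S-phase genes, 28 of them tested and none a member. In PB against control livers, 10, 8, 7 and 5 of 28 were higher in humanized livers on days 1, 7, 14 and 28 and 0 on day 91, with 1 lower on day 28. In knockout livers 1 was higher on day 1 and 0 on every later day, with 2 lower on day 91. In wild-type livers 15 were higher on day 1, 7 on day 7, 1 on day 14 and 0 on days 28 and 91, with 1 lower on day 14. Their median difference on day 1 was 0.20 in humanized, 0.10 in knockout and 0.28 in wild-type livers. Among them on day 1 in wild type were the helicase subunits Mcm5 (1.38) and Mcm6 (1.25) and Rrm2 (1.09), a subunit of ribonucleotide reductase. On day 7 in humanized livers the highest were Mcm6 (1.49), Mcm5 (1.04) and Mcm4 (0.75). Of 25 mitosis genes 14 were tested: 3, 8 and 1 were higher in humanized livers on days 1, 7 and 14, 0 in knockout on any day, and 5, 7 and 0 in wild type on the same days.

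Hells was higher in the early part of this wave. On day 1 in wild type its brightest probe set read 5.47, 5.56, 5.77, 5.93 and 6.39 in PB livers, against 5.13, 5.37, 5.42, 5.47 and 5.50 in control livers. All but the lowest PB liver stood above every control, and the groups overlapped by that animal alone. The difference was 0.44 ± 0.09 (limma, adjusted p = 3.49e-04). Without the arrays of high pancreas marker level, 2 controls remained and the difference was 0.24 (limma, adjusted p = 0.283). On day 7 in wild type it read 5.45, 5.63, 5.66 and 5.84 in PB livers, against 5.21, 5.30, 5.37 and 5.61 in control livers. The groups overlapped and the difference of 0.27 ± 0.11 was not called (adjusted p = 0.194). Later wild-type differences lay between -0.09 and -0.01.

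In humanized livers Hells was higher on day 7, with 5.58, 5.65, 5.82 and 5.90 in PB livers against 5.24, 5.38, 5.38, 5.42 and 5.55 in control livers. These groups did not overlap, and the difference was 0.34 ± 0.10 (limma, adjusted p = 0.0238). It was no longer called without PB animal 6006 or 6008 or control 5008, with 0.29 to 0.40 over all animals left out in turn. On day 1 humanized PB livers read 5.47, 5.56, 5.57, 5.64 and 5.73, against 5.20, 5.22, 5.36, 5.39 and 5.60 in control livers, which overlapped. That difference, 0.24, was not called (adjusted p = 0.0787). In knockout livers Hells read 5.33 to 5.64 in PB livers and 5.23 to 5.58 in control livers on day 1, with full overlap.

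Over the dosing days Hells averaged 5.62 ± 0.13 in humanized PB livers and 5.41 ± 0.13 in humanized controls (SD, n = 23 and 24), a difference of 0.21 ± 0.04 (limma, adjusted p = 4.59e-05). It averaged 5.37 ± 0.14 in knockout PB livers and 5.37 ± 0.13 in knockout controls (SD, n = 24 and 22), with a difference of 0.01 (adjusted p = 0.93). In wild type it averaged 5.56 ± 0.26 in PB livers and 5.46 ± 0.15 in controls (SD, n = 24 and 22), with a difference of 0.11 that was not called (adjusted p = 0.0539). This was borderline. It was called with array weights (limma, 0.10, adjusted p = 0.0399) and without some single animals, such as PB animal 2005 (0.12, adjusted p = 0.0197). The effect in humanized livers exceeded that in knockout livers by 0.20 (limma, adjusted p = 0.021), and this was lost without knockout control 3010 (adjusted p = 0.0535). Differences from wild type were not called, at 0.10 for humanized (adjusted p = 0.493) and -0.10 for knockout livers (adjusted p = 0.345).

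The timing itself was tested as the mean PB effect of days 1 and 7 minus that of days 14, 28 and 91. For this contrast 1.28% of genes were called in humanized, 0.0634% in knockout and 0.372% in wild-type livers. Hells was the 1 member called, in wild type, with an early excess of 0.42 ± 0.09 (limma, adjusted p = 0.0057). The call was lost in a fit of the compared groups alone (adjusted p = 0.156), without the arrays of high pancreas marker level (0.37, adjusted p = 0.186) and with the replication score as a covariate (0.27, adjusted p = 0.552). In humanized and knockout livers limma called 0 members, where 1 each had an unadjusted p under 0.05. In humanized livers the Hells excess was 0.14 (adjusted p = 0.519).

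For Hells and Uhrf1 a dimmer probe set gave larger differences than the brightest one, which was not so for Dnmt3b, where the dimmer one ran from -0.39 to 0.37 over the 18 single days and the brighter from -0.64 to 0.62. The probe sets were read from a second limma fit of 45037 probe sets with no filter on level, in which 25 probe sets named a member, and the 2 described next were chosen after their values were seen. A dim Hells probe set lay above its array's median on 5 of 166 samples. On day 1 in wild type it read 4.19, 4.71, 5.12, 5.55 and 6.38 in PB livers, against 3.33, 3.69, 3.97, 3.97 and 3.99 in control livers. The groups did not overlap and differed by 1.40 ± 0.19 (adjusted p = 1.58e-08), or by 0.92 (adjusted p = 0.0337) without the arrays of high pancreas marker level, 3 of them controls here. On day 7 in wild type it read 4.32, 5.14, 5.21 and 5.40 in PB livers, against 3.74, 3.75, 4.09 and 4.62 in control livers, an overlap made by 1 animal in each group. That difference was 0.97 ± 0.21 (adjusted p = 0.00253), and on day 14 it was 0.23 and not called (adjusted p = 0.654).

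In humanized livers the same probe set was called on days 1, 7 and 14. On day 7 it read 4.40, 5.01, 5.11 and 5.49 in PB livers, against 4.02, 4.03, 4.12, 4.19 and 4.28 in control livers. On day 14 it read 4.34, 4.65, 4.77, 4.96 and 5.05 in PB livers, against 3.92, 4.06, 4.16, 4.18 and 4.33 in control livers. On neither day did the groups overlap, and the differences were 0.87 ± 0.20 (adjusted p = 0.00526) and 0.62 ± 0.19 (adjusted p = 0.0378). The day 1 difference was 0.60 ± 0.19 (adjusted p = 0.0448) with overlapping groups. Leaving out single animals ended the call without 7 of 10 on day 1 and 8 of 10 on day 14, and without PB animal 6008 on day 7. Without the arrays of high pancreas marker level the day 1 difference was 0.48 (adjusted p = 0.16). In knockout livers the day 1 difference was 0.14 (adjusted p = 0.824). Averaged over dosing, the effect was 0.51 ± 0.09 in humanized (adjusted p = 2.94e-06), -0.04 in knockout (adjusted p = 0.857) and 0.59 ± 0.09 in wild-type livers (adjusted p = 7.33e-08). It was 0.54 ± 0.13 larger in humanized than in knockout livers (adjusted p = 0.00248), and the knockout minus wild-type difference was -0.63 ± 0.13 (adjusted p = 2.2e-04).

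Both Hells probe sets were higher on day 1 in wild type and on day 7 in humanized livers, and their deviations from the group means correlated at r = 0.39 over 166 samples. The remaining Hells probe set was called in no comparison.

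Uhrf1, the partner that brings DNMT1 to hemimethylated sites, was seen only through weak probe sets. Its brightest exceeded the array median on 0 of 166 samples and was called on 0 of 18 single days, where 3 differences had an unadjusted p under 0.05. The dimmer Uhrf1 probe set, also above the median on 0 samples, read 3.82, 3.98, 3.99, 4.28 and 4.66 in wild-type PB livers on day 1, against 3.28, 3.38, 3.41, 3.43 and 3.46 in control livers. On day 7 it read 3.59, 4.11, 4.47 and 4.64 in wild-type PB livers, against 3.25, 3.43, 3.44 and 3.58 in control livers. Neither pair of groups overlapped, though the lowest PB liver of day 7 stood just above the highest control. The differences were 0.76 ± 0.13 (adjusted p = 9.14e-06) and 0.78 ± 0.14 (adjusted p = 1.09e-04). Both groups lay near background on this probe set, so the sizes of these and the following Uhrf1 differences are uncertain.

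In humanized livers the dimmer Uhrf1 probe set read 3.41, 3.63, 3.71, 3.75 and 4.38 in PB livers on day 1, against 3.13, 3.23, 3.24, 3.31 and 3.36 in control livers. On day 7 it read 3.20, 4.15, 4.28 and 4.40 in PB livers, against 3.19, 3.36, 3.37, 3.39 and 3.45 in control livers. The groups were apart on day 1, and on day 7 a single PB liver lay among the controls. The differences were 0.52 ± 0.13 (adjusted p = 0.00537) and 0.65 ± 0.14 (adjusted p = 0.00119). Without PB animal 6003, whose array had the highest pancreas marker level of all (12.75), the day 1 difference was 0.37 (adjusted p = 0.114). In knockout livers it was 0.23 on day 1 (adjusted p = 0.412) and 0.02 over the dosing days (adjusted p = 0.893). Averaged over dosing, it was 0.33 in humanized (adjusted p = 4.65e-06) and 0.35 in wild-type livers (adjusted p = 2.67e-06). The difference between lines was 0.31 for humanized minus knockout (adjusted p = 0.0156) and -0.33 for knockout minus wild type (adjusted p = 0.00782). The 2 Uhrf1 probe sets hardly varied together within groups (r = 0.14 over 166 samples). The brightest one differed by 0.17 on day 1 (adjusted p = 0.219) and 0.22 on day 7 (adjusted p = 0.33) in wild type, in the same direction and uncalled. In humanized livers it differed by -0.0016 on day 1 (adjusted p = 0.995) and -0.043 on day 7 (adjusted p = 0.909), so the humanized difference was seen in the dimmer one alone.

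**Figure D2:**
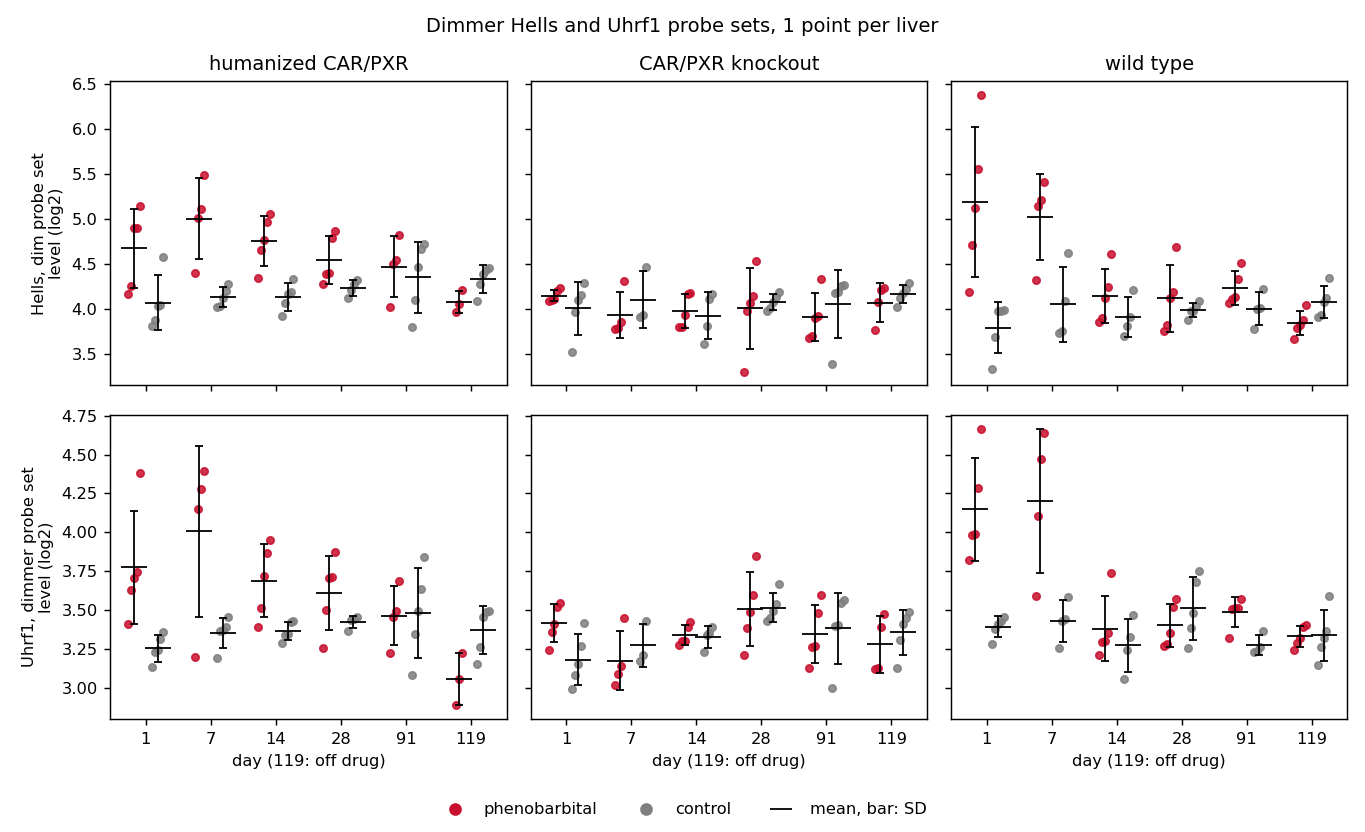
Level (log2) of the dim Hells probe set (top) and the dimmer Uhrf1 probe set (bottom) in every liver by day, PB in red left of control in grey, with mean and SD. PB means stood above control means on days 1 and 7 in humanized and wild-type mice, with differences of 0.60 to 1.40 for Hells and 0.52 to 0.78 for Uhrf1, against 0.14 and 0.23 on day 1 in knockout mice.

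Counting all 25 member probe sets in that fit gave the following. In humanized livers 2 were higher and 0 lower on day 1 (4.86% of 45037 called), 3 and 0 on day 7 (1.73%) and 1 and 1 on day 14 (4.49%). In wild-type livers 3 were higher and 2 lower on day 1 (4.7%), and 2 and 0 on day 7 (1.08%). The dosing mean gave 6 higher and 1 lower in humanized livers (17.5%), 0 and 2 in knockout (9.37%) and 2 and 4 in wild-type livers (15.9%). For humanized minus knockout effects 3 were higher and 0 lower (3.77%), and for knockout minus wild type 1 and 2 (5.38%). In wild type 3 had an early excess and 0 a late one (0.153%): both Hells probe sets described above and the dimmer Uhrf1 probe set, with an excess of 0.99 for the dim Hells probe set (adjusted p = 5.63e-04) and 0.70 for Uhrf1 (adjusted p = 2.45e-04). Probe sets of a gene share its RNA and are not independent.

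**Figure D3:**
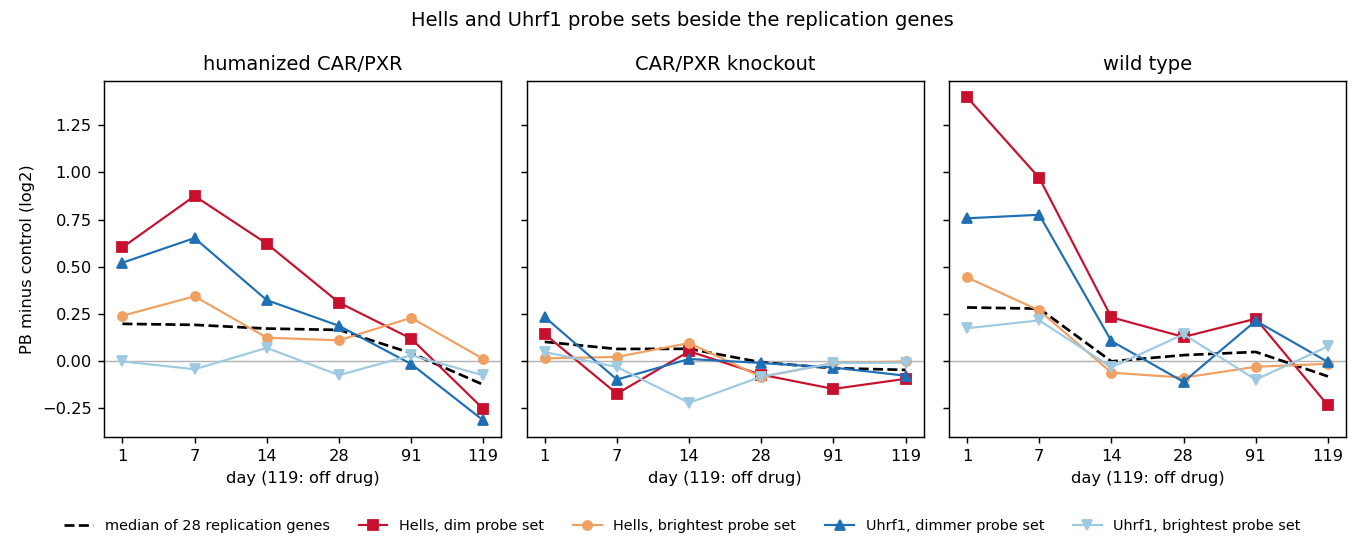
PB minus control (log2) by day for Hells and Uhrf1 probe sets beside the median of 28 replication genes (dashed) in humanized, knockout and wild-type livers. The dim Hells and dimmer Uhrf1 probe sets were highest on days 1 and 7 in wild type and on day 7 in humanized livers, where the replication median was 0.28 and 0.28 in wild type and 0.19 in humanized livers, while the 4 probe sets lay between -0.22 and 0.23 in knockout livers.

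Whether members follow replication from liver to liver was asked within groups. Each sample's deviation from its own group mean was correlated with that of a replication score, the mean level of the 28 replication genes, in 18 relations of 6 members in 3 genotypes, with permutation within groups and adjustment over the 18. The smallest p that 100000 permutations can give is 1e-05. Only Dnmt1 in humanized livers passed, with r = 0.59 (adjusted permutation p = 0.00054) and rho = 0.57 (adjusted permutation p = 0.00144) over 55 samples, and r = 0.59 without the 2 samples farthest from the median score. In knockout livers Dnmt1 gave r = 0.26 (adjusted permutation p = 0.234) and in wild type r = 0.26 (adjusted permutation p = 0.27). With a score from the mitosis genes the humanized value was r = 0.29 (adjusted permutation p = 0.39).

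The brightest Hells probe set in wild type gave r = 0.51, which missed the threshold (adjusted permutation p = 0.101) and was 0.19 without the 2 farthest samples. Dnmt3b in knockout (r = 0.35) and Tet3 in humanized livers (r = -0.40) also missed it, each at an adjusted permutation p of 0.101. The dimmer probe sets, a family of 6 relations added later, were closer to the score. The dim Hells probe set gave r = 0.68 and rho = 0.60 in humanized (adjusted permutation p = 1e-04 for r), r = 0.52 and rho = 0.41 in knockout (0.00328) and r = 0.84 and rho = 0.66 in wild-type livers (3e-05). Without the 2 farthest samples these r were 0.62, 0.34 and 0.71. The dimmer Uhrf1 probe set gave r = 0.76 and rho = 0.62 in humanized (adjusted permutation p = 3e-05), r = 0.04 in knockout (0.829) and r = 0.70 and rho = 0.50 in wild-type livers (0.000105). Without the 2 farthest samples the humanized and wild-type r were 0.72 and 0.61. With the replication score as a covariate, added after the data were seen, 15 of 19 results of the dimmer Hells and Uhrf1 probe sets lost their call and 1 turned sign. Among them the wild-type Uhrf1 differences were 0.30 on day 1 (adjusted p = 0.241) and 0.39 on day 7 (adjusted p = 0.151), while the dim Hells probe set on day 1 kept its call at 0.56 (adjusted p = 0.03). Only called results entered this count. The score itself was on average higher in PB livers on days 1 and 7 in humanized and wild-type mice. The fit thus takes out PB effects shared with the score, and a lost call does not show that a probe set follows replication. On day 1 in wild type, PB animal 2004 was highest in both Hells probe sets, in the dimmer Uhrf1 probe set and in the replication score (7.45). Its array was also the only PB array of that group with a high pancreas marker level (9.74). Animal 2005 was lowest in both Hells probe sets, the dimmer Uhrf1 probe set and the score (6.67, against 6.54 to 6.68 in control livers).

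Dnmt1, the maintenance methyltransferase, was called in no PB comparison by its brightest probe set. Its differences over the 18 single days lay between -0.16 and 0.13, with 0 called by limma and 0 with an unadjusted p under 0.05. Its dosing-day level averaged 7.46 ± 0.15 in humanized PB livers and 7.44 ± 0.15 in humanized controls (SD, n = 23 and 24). It averaged 7.47 ± 0.11 in knockout PB livers and 7.44 ± 0.14 in knockout controls (SD, n = 24 and 22), and 7.47 ± 0.15 in wild-type PB livers and 7.49 ± 0.15 in wild-type controls (SD, n = 24 and 22). The dosing-day differences were 0.01 ± 0.04, 0.03 ± 0.04 and -0.02 ± 0.04. A pair of dimmer Dnmt1 probe sets was higher in humanized PB livers over the dosing days, by 0.16 (adjusted p = 0.0281) and 0.15 (adjusted p = 0.0281). With the mean of all its probe sets Dnmt1 was called there too, at 0.11 (adjusted p = 0.0285). The genes whose within-group deviations were most like those of Dnmt1 over 166 samples were 1810008I18Rik (r = 0.62), Avpi1 (0.60) and Set (0.59).

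Dnmt3b, the de novo methyltransferase, had the largest differences among the brightest probe sets. On day 1 in wild type it read 6.77, 6.83, 6.93, 7.05 and 7.28 in PB livers, against 7.50, 7.52, 7.54, 7.64 and 7.86 in control livers. Every PB liver stood below every control. The difference was -0.64 ± 0.16 (limma, adjusted p = 0.00199).

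On days 7, 14 and 28 the wild-type PB mean was lower too, without a call on any of these days. On day 14 it read 6.89, 6.91, 6.95, 7.02 and 7.12 in PB livers, against 7.11, 7.34, 7.53 and 7.57 in control livers. The groups met at a single value on each side, with a difference of -0.41 (adjusted p = 0.107). On day 28 it read 6.68, 6.88, 7.06, 7.24 and 7.36 in PB livers, against 7.19, 7.21, 7.30, 7.32 and 7.72 in control livers, with overlap and a difference of -0.31 (adjusted p = 0.301). On day 91 the difference was 0.01 and PB livers, at 6.82 to 7.07, lay inside the control range of 6.75 to 7.32, and on day 119 it was 0.11. Over the dosing days Dnmt3b averaged 7.02 ± 0.18 in wild-type PB livers and 7.36 ± 0.30 in wild-type controls (SD, n = 24 and 22), a difference of -0.32 ± 0.07 (limma, adjusted p = 2.2e-04).

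On day 1 the humanized and knockout means were lower with PB as well, and on later days the lines parted. In humanized livers Dnmt3b read 6.22, 6.25, 6.60, 6.61 and 7.07 in PB livers on day 1, against 6.50, 6.90, 6.92, 6.98 and 7.28 in control livers, with overlap and a difference of -0.37 (adjusted p = 0.11). From day 7 on, humanized PB livers had the higher mean on every day, by 0.13 to 0.44 and never called. The dosing-day difference was 0.14 ± 0.07 (adjusted p = 0.127), from 6.77 ± 0.26 in PB livers and 6.63 ± 0.33 in controls (SD, n = 23 and 24).

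In knockout livers Dnmt3b read 6.64, 6.70, 6.74, 6.78 and 6.85 in PB livers on day 1, against 7.00, 7.04, 7.12, 7.17 and 7.75 in control livers. The groups did not overlap, and the difference was -0.48 ± 0.16 (limma, adjusted p = 0.0395). This call was lost without any of 7 of the 10 animals, and the difference without control 3005, the 7.75, was -0.34. On day 28 PB livers were higher, at 6.94, 7.01, 7.23, 7.23 and 7.34 in PB livers, against 5.82, 6.64, 6.67, 6.75 and 6.78 in control livers. Again the groups did not overlap, with a difference of 0.62 ± 0.16 (limma, adjusted p = 0.00814), which was 0.44 without control 3016, the 5.82 (adjusted p = 0.098). The knockout difference over dosing was 0.07 (adjusted p = 0.552).

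The PB effect over the dosing days was 0.46 ± 0.10 higher in humanized than in wild-type livers (limma, adjusted p = 0.00268) and 0.39 ± 0.10 higher in knockout than in wild-type livers (adjusted p = 0.00438). Humanized and knockout effects differed by 0.07 ± 0.10 (adjusted p = 0.758). The second Dnmt3b probe set varied with the brighter one within groups (r = 0.74 over 166 samples). It was lower in wild-type PB livers on day 1, at -0.39 (adjusted p = 0.0246), and over the dosing days, at -0.18 (adjusted p = 0.00879). Its knockout differences of -0.24 on day 1 (adjusted p = 0.305) and 0.37 on day 28 (adjusted p = 0.0662) were not called, nor were the genotype differences of 0.26 for humanized minus wild type (adjusted p = 0.0656) and 0.22 for knockout minus wild type (adjusted p = 0.0655).

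**Figure D4:**
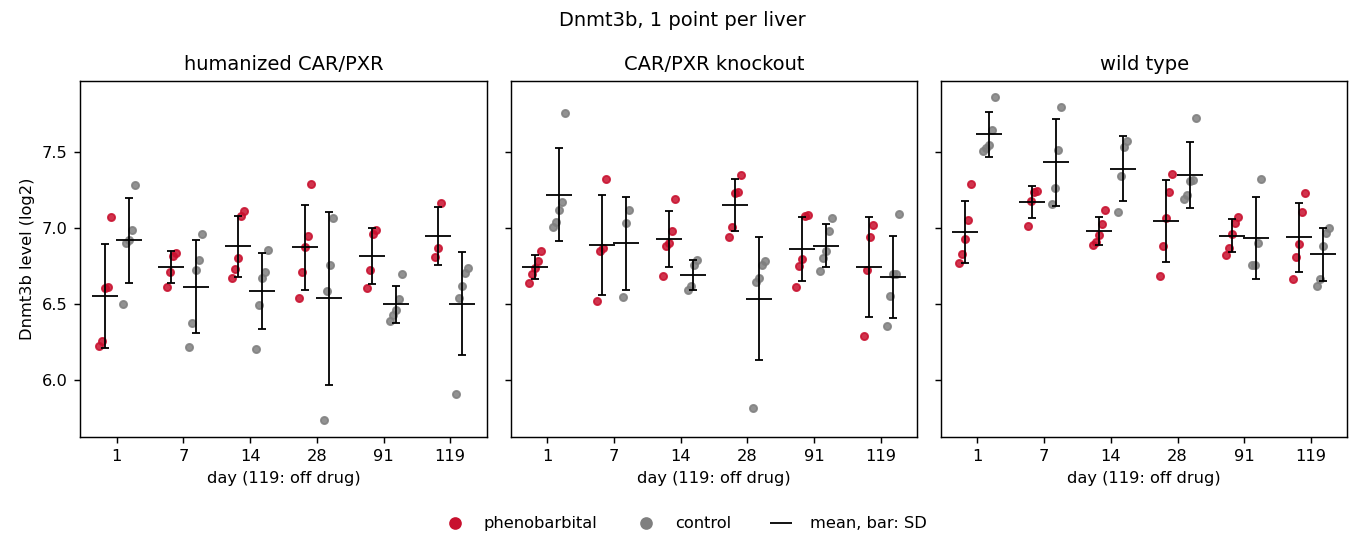
Dnmt3b level (log2) in every liver by day, PB in red left of control in grey, with mean and SD. Wild-type PB livers lay below controls on day 1 (6.77 to 7.28 against 7.50 to 7.86), knockout PB livers below controls on day 1 and above them on day 28, and controls averaged 6.61 in humanized, 6.81 in knockout and 7.26 in wild-type mice.

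Within groups the deviations of Dnmt3b correlated with the replication score at r = 0.17 over 166 samples. By line r was 0.09 in humanized, 0.35 in knockout (adjusted permutation p = 0.101) and 0.14 in wild-type livers, and none passed. The genes nearest or most opposed to Dnmt3b in their deviations included circadian clock genes. The tested genes most like Dnmt3b were Ddc (r = 0.62), Npas2 (0.58), a paralogue of Clock, and Commd7 (0.58). The most opposed were the clock output factors Tef (-0.62) and Dbp (-0.59) and the clock repressor Nr1d2 (-0.55). A list of 10 clock genes was then written, after this was seen, with Arntl (0.54), Npas2 and Clock (0.10) as the positive arm and Nr1d1 (-0.28), Nr1d2, Dbp, Tef, Hlf (-0.41), Per2 (-0.28) and Per3 (-0.55) as the opposed arm. The clock score, the mean of the positive arm minus that of the other, correlated with Dnmt3b at r = 0.64 over 166 samples. That r is not independent of the choice of the genes, which was made in the same samples. These values describe samples that share a stated time window, from 9 to 11 a.m., and carry no test.

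Clock genes differed between several of the groups compared. On day 1 the clock score was -0.55 ± 1.34 in humanized PB livers and 0.62 ± 0.25 in humanized controls, -0.17 ± 0.78 in knockout PB livers and 0.81 ± 0.15 in knockout controls, and 1.05 ± 0.27 in wild-type PB livers and 1.42 ± 0.19 in wild-type controls (SD, n = 5 each). On day 28 it was 1.17 ± 0.42 in knockout PB livers and 0.06 ± 1.60 in knockout controls (SD, n = 5 each). Of the 10 clock genes, 2 were higher and 1 lower in humanized livers on day 1, 4 higher in knockout livers on day 1, 1 higher and 2 lower in knockout livers on day 28, and 0 changed in wild type on day 1 or over the dosing days. Dbp was 2.73 higher in humanized (adjusted p = 0.00152) and 2.25 higher in knockout PB livers on day 1 (adjusted p = 0.0168). Control 3016, the lowest Dnmt3b of knockout day 28, had the lowest clock score of all samples (-2.70), and control 5017 of humanized day 28, with the lowest Dnmt3b of all (5.73), ranked 3 from the lowest (-1.80).

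With the clock score as a covariate in the fit, added after the data were seen, the wild-type differences kept their call, at -0.54 on day 1 (limma, adjusted p = 6.79e-04) and -0.29 over the dosing days (adjusted p = 1.37e-05). The genotype differences were 0.34 for humanized minus wild type (adjusted p = 0.00741) and 0.35 for knockout minus wild type (adjusted p = 7.75e-04). Both knockout calls were lost, at -0.21 on day 1 (adjusted p = 0.295) and 0.32 on day 28 (adjusted p = 0.138). The genes of this score were listed after their relation to Dnmt3b was seen, and its mean itself differed between PB and control livers in these groups. A call kept or lost in this fit therefore does not show the part of the clock. The hour within the sampling window was not used here, and its part in the Dnmt3b differences was not tested. Pancreas markers stood high on 1 of 5 PB arrays and 3 of 5 control arrays of wild-type day 1. Without the high arrays, 2 controls remained, the Dnmt3b difference was -0.54 (adjusted p = 0.17) and that of Hells 0.24 (adjusted p = 0.283). Over the dosing days Dnmt3b in wild type was still lower without them, at -0.29 (adjusted p = 0.00964).

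**Figure D5:**
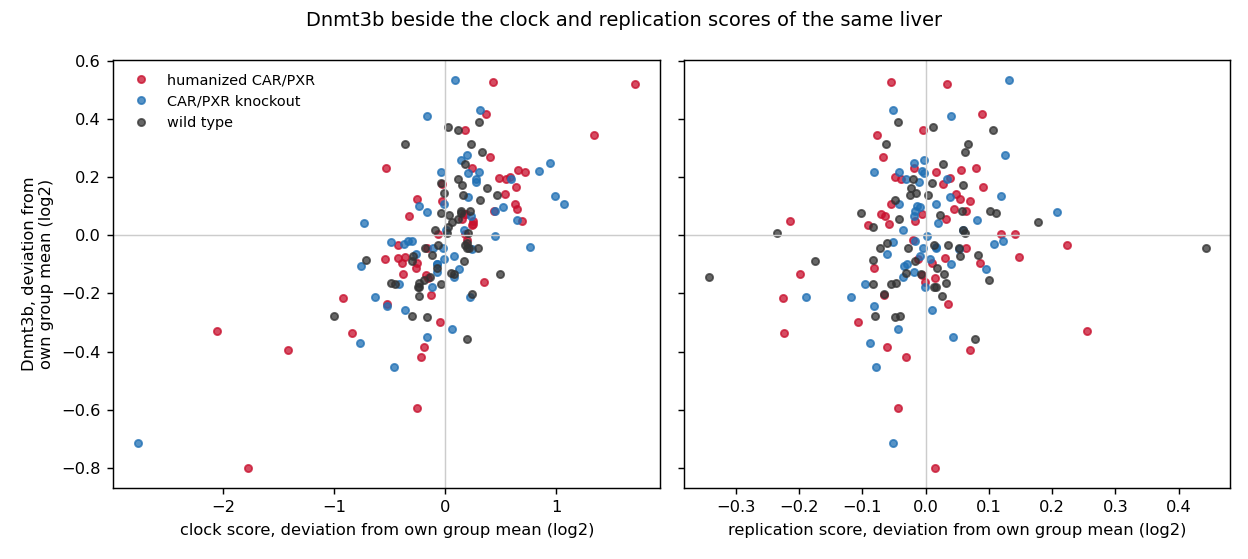
Dnmt3b against the clock score (left) and the replication score (right) of the same liver, each as the deviation from its own group mean (log2), 1 point per sample and n = 166. Over all samples r was 0.64 with the clock score and 0.17 with the replication score. The clock genes were listed after their likeness to Dnmt3b was seen, so these values are not a like comparison. Points are humanized (red), knockout (blue) and wild-type (black) livers.

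Dnmt3a, the other de novo enzyme, was lower in wild-type PB livers over the dosing days, at 7.03 ± 0.22 in PB livers and 7.19 ± 0.20 in controls (SD, n = 24 and 22), a difference of -0.16 ± 0.05 (limma, adjusted p = 0.0122). On day 7 it read 7.00, 7.04, 7.06 and 7.19 in PB livers, against 7.18, 7.26, 7.32 and 7.42 in control livers, and on day 14 it read 6.82, 6.85, 6.89, 7.06 and 7.11 against 7.09, 7.18, 7.28 and 7.31. On both days the groups met by 1 animal, and the differences of -0.22 (adjusted p = 0.48) and -0.27 (adjusted p = 0.141) were not called. The dosing-day difference was 0.01 in humanized livers and -0.05 in knockout livers (adjusted p = 0.536). The difference from wild type was not called for humanized, 0.17 (adjusted p = 0.256), or knockout livers, 0.11 (adjusted p = 0.396). Of 4 further Dnmt3a probe sets, 1 was also lower in wild type over the dosing days, at -0.23 (adjusted p = 0.0453). Most like Dnmt3a within groups were S100pbp (r = 0.61), Rnf152 (0.59) and Npc1 (0.58).

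The oxidising enzymes showed no PB change that passed. Tet2 differences lay between -0.13 and 0.19 over the 18 single days and Tet3 differences between -0.14 and 0.12, with 0 called by limma and 0 with an unadjusted p under 0.05 for either gene. Across dosing Tet2 differed by -0.01 in humanized, 0.05 in knockout and 0.01 in wild-type livers, and Tet3 by 0.05, -0.02 and 0.02, each with an SE of 0.04 or 0.05. Tet1 was dim, above the array median on 2 samples, and its brightest probe set was called in no comparison. A dimmer one was 0.10 higher in humanized PB livers over the dosing days (adjusted p = 0.045). The genes most like Tet2 were B3galt1 (r = 0.57), Ncoa3 (0.55) and Birc6 (0.54), and those most like Tet3 were Casp14 (0.58), Asb6 (0.57) and Epn2 (0.56).

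Tdg, the glycosylase that completes active demethylation, shares its 3 probe sets with the pseudogenes, so a difference may not be that of Tdg RNA. In humanized livers on day 14 the dimmest of the 3 read 6.96, 7.16, 7.22, 7.29 and 7.31 in PB livers, against 7.31, 7.31, 7.45, 7.48 and 7.55 in control livers, a difference of -0.24 ± 0.07 (limma over all probe sets, adjusted p = 0.0258). The highest PB liver was level with the lowest controls. Over the dosing days this probe set was lower, at -0.11 in humanized (adjusted p = 0.0104) and at -0.11 in knockout livers (adjusted p = 0.0143), while in wild type it differed by 0.01 (adjusted p = 0.927). Of the other probe sets 1 was lower in knockout livers, at -0.09 (adjusted p = 0.0438), and 1 was called in no comparison. The differences between lines for the dimmest were not called (adjusted p = 0.303 for humanized minus wild type and 0.123 for knockout minus wild type).

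Control livers differed between lines most in the de novo enzymes. Dnmt3b averaged 6.61 ± 0.33 in humanized controls (SD, n = 29), 6.81 ± 0.34 in knockout controls and 7.26 ± 0.35 in wild-type controls (SD, n = 27 each). The difference from wild-type controls was -0.65 ± 0.07 in humanized (limma, adjusted p = 5.05e-15) and -0.44 ± 0.07 in knockout controls (adjusted p = 8.81e-08), and the difference between humanized and knockout controls was not tested. Its second probe set was also lower, at -0.39 (adjusted p = 5.07e-11) and -0.28 (adjusted p = 8.52e-06). With the clock score as a covariate the differences were -0.33 (adjusted p = 1.24e-05) and -0.32 (adjusted p = 1.4e-06), and 5 clock genes were higher and 2 lower in humanized than in wild-type controls.

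Dnmt3a averaged 6.88 ± 0.19 in humanized, 7.01 ± 0.18 in knockout and 7.14 ± 0.23 in wild-type controls, a difference from wild type of -0.25 ± 0.05 in humanized controls (limma, adjusted p = 6.88e-06). The knockout difference of -0.13 (adjusted p = 0.0463) was lost in 29 of 54 fits that left out 1 animal. Tet3 was lower in humanized than in wild-type controls, at -0.10 (adjusted p = 0.0369), a call lost in 11 of 56 such fits, while the knockout value of -0.10 missed (adjusted p = 0.0557). Dnmt1, Tet2 and the brightest Hells probe set were not called. In all, 3 members were lower in humanized controls, where 28% of genes were called, and 2 in knockout controls, where 22.4% were called, with 0 higher in either line.

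Across the study's days, controls killed on day 119 were set against controls killed on day 1, with the 3 lines weighted equally. Here 28% of genes were called, with 2 members lower and 0 higher. Dnmt3b averaged 6.67 ± 0.29 on day 119 and 7.25 ± 0.38 on day 1 (SD, n = 15 each), a difference of -0.58 ± 0.09 (limma, adjusted p = 8.58e-08), which was -0.44 with the clock score as a covariate (adjusted p = 2.87e-07). Dnmt3a averaged 6.82 ± 0.18 on day 119 and 7.15 ± 0.20 on day 1, a difference of -0.34 ± 0.06 (adjusted p = 9.89e-06). Of its 4 further probe sets 3 were lower too, at -0.48, -0.35 and -0.51, and 1 was called in no comparison. Days were sampled once each, so age and day of sampling cannot be told apart. Of the clock genes 4 were higher on day 119.

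After withdrawal no member was called. On day 119 limma called 0 members in any line. The PB effect of day 119 minus that of day 91 was called for 1.56% of genes in humanized, 0.0555% in knockout and 0.666% in wild-type livers, and for 0 members in each, with 0 at an unadjusted p under 0.05. The Dnmt3b groups of humanized day 119 did not overlap, at 6.81, 6.86 and 7.16 in PB livers against 5.91, 6.54, 6.62, 6.70 and 6.73 in control livers, but the difference of 0.44 was not called (adjusted p = 0.352).

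Genes that surround the members in the pathway were described over the dosing days. Of the 6 tested methyl-CpG readers 2 were lower in humanized, 3 in knockout and 3 in wild-type PB livers, and 0 were higher. These counts and those of the next 3 lists stand beside 32.4%, 19.6% and 31.5% of all genes called over dosing. The partner and repair lists were called at about that share or below it. So were the readers in humanized livers and the methyl donor genes in wild type. Zbtb33 (Kaiso), which binds methylated CpG, was lower in all 3 lines, at -0.16 in humanized (limma, adjusted p = 2.47e-10), -0.06 in knockout (adjusted p = 0.0325) and -0.11 in wild type (adjusted p = 1.52e-05). Mbd1, another reader, was lower, at -0.43 in humanized and -0.35 in knockout livers, and Mbd2 was lower at -0.10 in knockout and -0.09 in wild-type livers.

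Of 12 tested partners of the methyltransferases 1 was higher and 2 lower in humanized, 0 and 0 in knockout and 1 and 3 in wild-type livers. Setdb1, a histone H3 lysine 9 methyltransferase, was higher in wild type by 0.20 (limma, adjusted p = 1.89e-10), and its effect differed by -0.18 for humanized minus wild type (adjusted p = 0.000787) and -0.23 for knockout minus wild type (adjusted p = 1.06e-06). These line differences, and that of Cbs below, were chosen after their values were seen. Ehmt1, of the same enzyme class, was lower, at -0.13 in humanized and -0.11 in wild-type livers. Cdca7l, whose paralogue CDCA7 recruits HELLS to chromatin, was higher by 0.11 in humanized livers over the dosing days (adjusted p = 0.014) and by 0.30 on day 7 (adjusted p = 0.0225).

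Of 12 tested genes of methyl donor supply, beside the same shares, 4 were higher and 4 lower in humanized, 3 and 1 in knockout and 1 and 3 in wild-type livers. Cbs, which draws homocysteine out of the methionine cycle, was lower, at -0.32 in humanized (limma, adjusted p = 1.64e-11) and -0.31 in wild-type livers (adjusted p = 1.08e-10), and the knockout effect stood 0.38 above wild type (adjusted p = 5.4e-08). Mat1a, the liver S-adenosylmethionine synthase, was lower, at -0.21 in humanized and -0.11 in wild-type livers. Shmt2, a mitochondrial one-carbon enzyme, was higher by 0.17, 0.15 and 0.09 in humanized, knockout and wild-type livers.

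Of 17 tested genes of repair after demethylation and of TET cofactors 4 were higher and 2 lower in humanized, 3 and 0 in knockout and 2 and 3 in wild-type livers. Idh2 and Idh1 make 2-oxoglutarate, the cosubstrate of TET enzymes. Idh2 was higher by 0.30 in humanized (limma, adjusted p = 1.49e-12), 0.14 in knockout (adjusted p = 0.00261) and 0.25 in wild-type livers (adjusted p = 9.46e-09), and Idh1 by 0.13 in humanized (adjusted p = 1.39e-07) and 0.20 in wild-type livers (adjusted p = 6.3e-14). Cxxc5, a CXXC zinc finger protein, was lower, at -0.20 in wild type (adjusted p = 2.38e-06). The medians of these 4 lists over the dosing days lay between -0.10 and 0.03, against -0.01 to 0.01 over all genes.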

How the data were processed

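RNA of whole liver was measured on Affymetrix arrays, 1 per animal. The authors deposited log2 values made by RMA, per the submitters' processing notes, which give no version for it. The values ran from 2.11 to 15.07, with array medians of 5.146 to 5.231, and the number of arrays limits the precision. Of 45101 probe sets 34945 named 1 gene symbol in the platform annotation, 932 several and 9160 none. Here each gene was read from its probe set of highest mean, and 5572 dim genes, above the median of fewer than 3 arrays, were left out. Group means of 36 groups and 166 samples were fitted in limma 3.58.1 (R 4.3.3) with Benjamini-Hochberg adjustment within each comparison. Scores were computed in R, and permutation tests used Python 3.11.15 and SciPy 1.17.1. The code was tested on simulated data. The members and lists were chosen with earlier results of these data known. The text names all members, up to 4 called genes of each further list with the largest difference on days 1 and 7 in humanized and wild-type livers and over the dosing days, the drug response genes and receptors as checks, and the 3 genes most like each tested member. Alternatives changed the normalization, the filter, the probe sets, the samples in the fit, array weights, the prior and single animals, and left out arrays with high pancreas markers.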

Additional observations from a re-analysis of the deposited data

Results flagged for a closer look

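Dixon's test was made for each of the 6 tested members within its groups, in 204 tests. A single liver stood far from the rest of its group in 14 of them, where chance gives about 1 in 20. Among PB livers these were Hells in animal 4012 of knockout day 14 (5.62, others 5.34 to 5.42), Dnmt1 in animal 2017 of wild-type day 28 (7.62, others 7.42 to 7.46) and Hells in animal 2016 of wild-type day 28 (5.21, others 5.48 to 5.54). Among humanized controls they were Dnmt1 (7.16, others 7.40 to 7.46) and Dnmt3b (5.91, others 6.54 to 6.73) in animal 5028 of day 119 and Dnmt3a in animal 5004 of day 1 (7.39, others 6.84 to 7.00). Among knockout controls they were Dnmt3b in animal 3005 of day 1 (7.75, others 7.00 to 7.17), Dnmt3b in animal 3016 of day 28 (5.82, others 6.64 to 6.78) and Tet2 in animal 3004 of day 1 (6.89, others 7.52 to 7.70). Among wild-type controls they were Dnmt3b (7.72, others 7.19 to 7.32) and Tet3 (6.33, others 5.93 to 6.03) in animal 1020 of day 28, Tet2 in animal 1011 of day 14 (7.73, others 7.47 to 7.51), Tet2 in animal 1017 of day 28 (7.36, others 7.50 to 7.53) and Tet3 in animal 1025 of day 91 (6.32, others 5.82 to 5.88).

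The PB effect over the dosing days differed between lines for Dnmt3b, by 0.46 for humanized minus wild type and 0.39 for knockout minus wild type, and for Hells, by 0.20 for humanized minus knockout.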

How the results depend on the processing

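Counts of members called did not change in any of the 33 comparisons under a stricter filter, an intensity-dependent robust prior, both near-identical day 119 arrays kept apart, or animals 4019 and 4024 left out. Otherwise, where a count moved by over 1.5 times, it was as follows. Quantile normalization gave 0 for knockout day 1. No filter on dim genes gave 0 for knockout day 1 and 1 for knockout minus wild-type controls. The mean of all probe sets gave 1 for wild-type day 1 and 0 for humanized day 7, knockout day 1, humanized minus knockout and the wild-type early excess, because the mean for Hells failed the filter on dim genes, and in humanized dosing its count of 1 was Dnmt1 in place of Hells. Fitting only the compared groups gave 1 for wild-type days 1 and 14 and 0 for knockout days 1 and 28 and the wild-type early excess, with Hells on wild-type day 1 at adjusted p = 0.103. Array weights gave 1 for wild-type day 14 and 1 for the knockout early minus later contrast, where Dnmt3b was lower early (-0.54). Leaving out arrays with high pancreas markers gave 0 for wild-type day 1, knockout day 1 and the wild-type early excess. The 2 covariates that follow were added after the data were seen. Both also differed between PB and control livers in some groups, so a call kept or lost with them does not show their part. The clock score as a covariate gave 1 for wild-type day 14 and knockout minus wild-type controls and 0 for knockout days 1 and 28. The replication score as a covariate gave 1 for wild-type day 1 and knockout minus wild-type controls and 0 for humanized day 7, humanized dosing, humanized minus knockout and the wild-type early excess, and it turned the humanized day 1 difference of the dim Hells probe set to -0.044 and ended the call of 15 of 19 results of the dimmer Hells and Uhrf1 probe sets. Leaving out 1 animal gave 0 to 2 for humanized day 1, 0 to 1 for humanized day 7, knockout day 1, knockout day 28 and humanized minus knockout, 1 to 2 for humanized dosing and 1 to 3 for knockout minus wild-type controls. Except for the covariates and the fits with fewer samples, whose construction differs, the cause was not tested. No paired analysis was possible because replicate numbers are animal numbers that no groups share. Uhrf1, Tet1 and the dimmer Hells probe set lie near background, which limits their fold changes.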
